A study of Mus musculus with 18 samples.

Results

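The transcripts followed here encode proteins that set how long cytokine mRNAs last in macrophages. The list held 9 symbols, Zfp36, Zfp36l1, Zfp36l2, Zc3h12a, Zc3h12c, Rc3h1, Elavl1, Auf1 and Khsrp, which were looked up by name in the gene tables of all 18 libraries. Of these, 8 were among the 24485 genes of the tables, and all 8 passed the filter on low counts in every comparison. Auf1 had no entry of that name. A RefSeq gene table gives Auf1 as another name of Hnrnpd, so Hnrnpd is described below among the related factors and is not counted as a member.

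The cells were macrophages grown from the bone marrow (BMDMs) of Il10-/- mice on a C57BL/6J background, grown for 6 days in medium conditioned by L929 cells, a fibroblast line that secretes macrophage growth factor. The study's methods give the donors as 12-week-old males. Cells were pretreated for 12 h and then given lipopolysaccharide (LPS), a cell wall component of Gram-negative bacteria, at 50 ng/mL, or PBS, for 4 h. The 6 groups of 3 libraries were Unstimulated (no pretreatment, PBS), JQ1 (500 nM (+)-JQ1, PBS), IL-10 (10 ng/mL IL-10, PBS), LPS (no pretreatment), LPS + JQ1 and LPS + IL-10. (+)-JQ1 blocks the bromodomains of BET proteins, which read acetylated histones and promote transcription, and IL-10 is the cytokine that these mice lack. Every group, the controls included, carried the Il10-/- genotype, so no group stands for a wild-type macrophage. The methods name a vehicle where the labels say untreated. The labels give 3 mice, and each library number was read as 1 mouse, so n = 3 in every group.

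Many cytokine mRNAs carry AU-rich elements in the 3′ untranslated region (3′ UTR). TTP, the product of Zfp36, and its paralogs from Zfp36l1 and Zfp36l2 bind these elements and recruit the CCR4-NOT deadenylase, after which the mRNA is decapped and degraded. Regnase-1, from Zc3h12a, and Regnase-3, from Zc3h12c, are endonucleases, and Roquin-1, from Rc3h1, binds stem-loops in the same class of transcripts. HuR, from Elavl1, binds AU-rich elements and generally stabilises the mRNA, whereas KSRP, from Khsrp, promotes its decay. In macrophages, loss of TTP or Regnase-1 is known to leave cytokine mRNAs such as Tnf or Il6 in place for too long.

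The AU-rich nonamer TTATTTATT, the core to which the ZFP36 proteins bind, is shown first because these factors bind it and some of their own transcripts hold it. It was searched on the transcript strand, overlapping matches included, in the longest annotated 3′ UTR of each gene (GENCODE vM1, genome build NCBIM37, which is mm9). At least 1 match was found in 5 of the 8 members (62.5%). The share was 7.59% of 10035 genes whose mean normalised count reached 10, and 10.2% of the 6420 of those with a 3′ UTR in the members' length range of 774 to 7181 bases. Each 30-base window below lies inside 1 exon of the 3′ UTR and is written 5′ to 3′ as DNA, with 1 match in capitals.
Zfp36: tatgacgactTTATTTATTgtattaagatt
Zfp36l1: aactgttggaTTATTTATTttagaaattct
Zfp36l2: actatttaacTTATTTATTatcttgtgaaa
Rc3h1: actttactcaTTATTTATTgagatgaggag
Elavl1: gtcatgaaaaTTATTTATTtatttatttat
Tnf: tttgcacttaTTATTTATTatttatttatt
These windows are at chr7:29161969-29161998 for Zfp36, chr12:81209153-81209182 for Zfp36l1 and chr17:84584253-84584282 for Zfp36l2, all on the minus strand. Those of the other genes are at chr1:162900174-162900203 on the plus strand for Rc3h1, chr8:4285787-4285816 on the minus strand for Elavl1 and chr17:35336633-35336662 on the minus strand for Tnf. The 3 paralogs and Rc3h1 each held a single match, Elavl1 held 8 and Tnf, printed for comparison as a known target, held 5, in both cases in clusters that overlap. No match was found in Zc3h12a, Zc3h12c or Khsrp, which says only that these letters are not in that window. A match describes a sequence and is not evidence of binding.

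In mm9 the genes themselves lie at chr7:29161803-29164274 (Zfp36), chr12:81208747-81214000 (Zfp36l1), chr17:84583271-84587287 (Zfp36l2), chr4:124795667-124805084 (Zc3h12a), chr9:51920090-51976216 (Zc3h12c), chr1:162836549-162905109 (Rc3h1), chr8:4284782-4325100 (Elavl1) and chr17:57160481-57170930 (Khsrp). Only Zfp36l1 among them overlaps another annotated gene, the long noncoding RNA Gm17591 on the opposite strand. The counting was run with default settings, so reads of the 2 genes may not be told apart.

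The libraries held between 6781952 and 28289498 expected counts. All 8 macrophage markers found in the table were present in every library, with Csf1r between 576 and 1791 TPM (transcripts scaled to a fixed total and corrected for length) and Lyz2 between 9722 and 24853 TPM. Summed T cell markers were at most 0.63 TPM in the groups without LPS and in LPS + JQ1 but 3.99 to 4.57 TPM in LPS and 3.08 to 3.26 TPM in LPS + IL-10, most of it from Lck, while Cd3e stayed at or below 0.09 TPM. Summed endothelial markers likewise reached 7.48 to 9.53 TPM in LPS and 7.63 to 9.29 TPM in LPS + IL-10, from Kdr, with Tek at or below 0.03 TPM. The highest sums of neutrophil and B cell markers were 13.3 and 5.13 TPM, both in Unstimulated, and of fibroblast markers 10.3 TPM, in JQ1. Summed macrophage markers also differed, at 22971 to 24769 TPM in Unstimulated, 28936 to 29066 in JQ1 and 14317 to 15764 in LPS. The part of these genes in the results below was not tested. Il10 itself kept 16 to 196 counts in every library. The values are per gene, so they do not check the deletion. LPS replicate 3 and LPS + IL-10 replicate 3 stood apart from the libraries of their own groups, with a chi-square per degree of freedom of 26.1 to 30.5 against 4.14 to 11.2 in the other 14 replicate pairs. These are bulk samples, in which fewer cells of a type and less RNA per cell cannot be told apart.

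LPS moved the decay factors in both directions. Zfp36, Zc3h12a, Zc3h12c, Rc3h1 and Elavl1 were higher in LPS than in unstimulated macrophages, Zfp36l1 and Zfp36l2 were lower, and Khsrp did not pass the test. The 7 of 8 members called (5 higher, 2 lower; adjusted p under 0.05 in the DESeq2 Wald test) stand against 64.5% of all 14965 genes tested, 31.6% higher and 32.9% lower. The median log2 fold change of the members was 1.32 and that of all genes tested was -0.07.

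Zfp36, the gene for TTP, had normalised counts (counts divided by a size factor for each library) of 2203, 2159.8 and 1922 in the unstimulated libraries and 10929, 11452 and 9325 in LPS. The groups were far apart, and the log2 fold change was 2.34 (SE 0.09), a 5.05-fold rise (adjusted p = 2.59e-159). As a plain log2 ratio of mean normalised counts it was 2.33 within sequencing lane 7 and 2.43 within lane 8. Lane 7 held 1 LPS and 2 unstimulated libraries, and lane 8 held 2 and 1.

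The paralogs moved the other way. Zfp36l1 fell from 3133, 2992 and 3112 normalised counts to 84.8, 67.2 and 109 (log2 fold change -5.16, SE 0.12), which is 35.7-fold lower. Zfp36l2, the most abundant member per length in unstimulated cells, fell from 6255, 6664 and 5682 to 455, 492 and 443 (log2 fold change -3.74, SE 0.09), 13.3-fold lower. For both genes the adjusted p was below the smallest number the software holds and was written as 0. Within lanes 7 and 8, from the same few libraries as above, the log2 ratios of means were -5.17 and -5.14 for Zfp36l1. For Zfp36l2 they were -3.83 and -3.60.

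**Figure D1:**
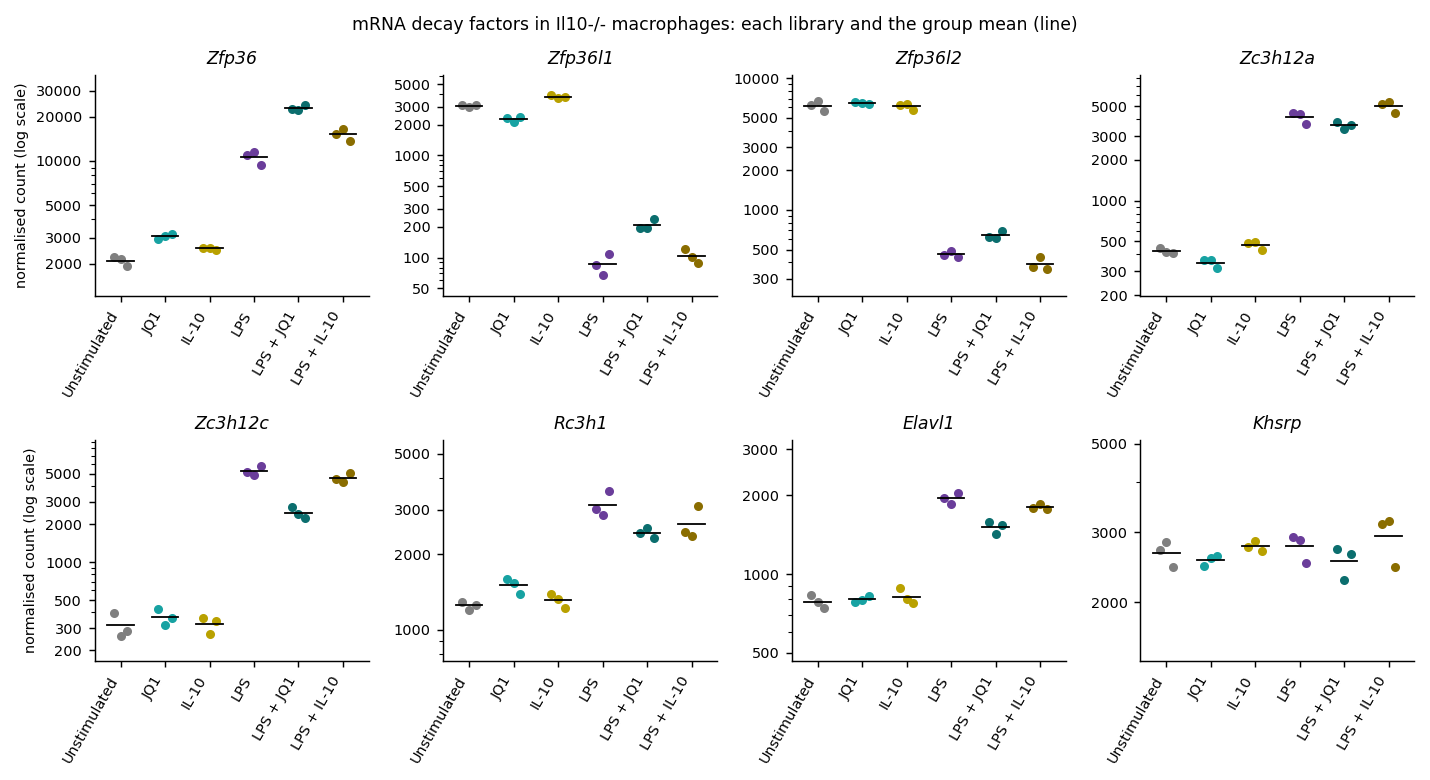
Normalised counts on a log axis for the 8 members in the 6 groups, with 1 point per library (replicates 1 to 3 from left to right) and a line at the group mean. Zfp36, Zc3h12a and Zc3h12c sit higher in all 9 LPS libraries than in all 9 others, Zfp36l1 and Zfp36l2 sit lower, and Khsrp stays between 2273 and 3199.8.

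The endonucleases rose most. Zc3h12a, for Regnase-1, went from 444, 418 and 409 normalised counts to 4461, 4382 and 3696, a 9.86-fold rise (log2 3.30, SE 0.10, adjusted p = 6.67e-230). Zc3h12c, for Regnase-3, went from 399, 262 and 286 to 5153, 4951 and 5825, a 16.7-fold rise (log2 4.06, SE 0.15, adjusted p = 7.91e-164). In both, the lowest LPS library was above every unstimulated library by a wide margin.

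Rc3h1, the stem-loop binder Roquin-1, showed a smaller rise, from 1291, 1197 and 1257 normalised counts to 3019, 2867 and 3556 (log2 1.33, SE 0.11, adjusted p = 1.04e-35). Elavl1, the stabilising HuR, rose by nearly the same amount, from 829, 785 and 742 to 1948, 1853 and 2039 (log2 1.31, SE 0.07, adjusted p = 7.99e-74). Khsrp, for KSRP, had 2707, 2828 and 2453 normalised counts without LPS and 2909.7, 2868 and 2516 with it, and the ranges overlapped (log2 0.06, 95% interval -0.14 to 0.25, adjusted p = 0.656). In TPM they were separate, at 90.8 to 98.6 without LPS and 57.1 to 59.5 with it.

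The scaling between libraries matters for the smaller changes. When each library was scaled by its total count, the median gene of the 12251 past a count filter moved by -0.997 on the log2 scale with LPS, against -0.07 with the DESeq2 size factors. The share of the counts taken by the 10 most abundant genes, for reference, was 19.9% to 22.2% in unstimulated libraries and 12.9% to 15.3% in LPS. All 7 calls were kept in the same direction under all 4 scalings tried, with total-count values of 1.41 for Zfp36, -6.08 for Zfp36l1, -4.66 for Zfp36l2, 2.37 for Zc3h12a, 3.13 for Zc3h12c, 0.41 for Rc3h1 and 0.38 for Elavl1. Khsrp became lower under that scaling, at -0.87 (adjusted p = 8.55e-21). Relative to the median gene Khsrp was 0.12 above it with size factors and 0.13 above it with total counts. A count scaling shifts all genes by nearly the same amount, so this match follows from the arithmetic.

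**Figure D2:**
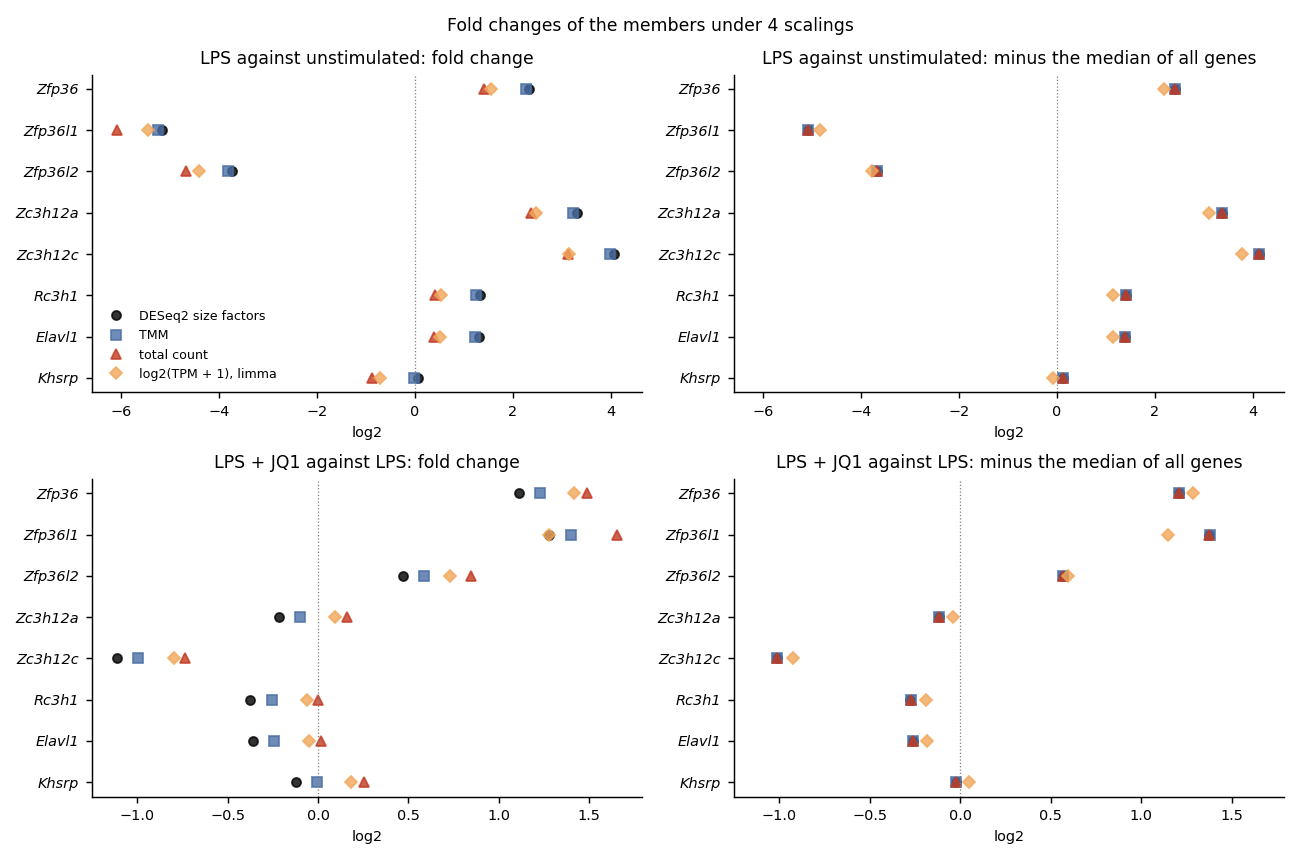
Log2 fold changes of the 8 members under 4 scalings (left) and the same values after the median of all genes is taken off (right), for LPS against unstimulated (top) and LPS + JQ1 against LPS (bottom). On the right the 3 count-based scalings fall on each other, as the arithmetic requires, and Khsrp lies near 0 in both rows.

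Measured per length, and therefore comparable between genes, the ZFP36 family changed hands. The order in unstimulated cells was Zfp36l2 at 254 ± 12.5 TPM (SD, n = 3), Zfp36 at 182 ± 11.6, Zfp36l1 at 151 ± 8.81 and Khsrp at 95.7 ± 4.30, with no overlap between neighbours. Below these came Zc3h12a at 22.2 TPM, Elavl1 at 18.4, Rc3h1 at 15.8 and Zc3h12c at 7.30, whose ranges were also separate. With LPS the order became Zfp36 at 535 ± 32.6 TPM, Zc3h12a at 127, Zc3h12c at 71.8, Khsrp at 57.9, Elavl1 at 26.7, Rc3h1 at 23.4, Zfp36l2 at 11.1 ± 0.792 and Zfp36l1 at 2.52 ± 0.770. Elavl1 and Rc3h1 overlapped there, and the other neighbours did not.

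As a share of the summed TPM of the 3 paralogs, Zfp36 made up 31.02% ± 0.857 of the unstimulated total and 97.5% ± 0.286 of the LPS total (SD, n = 3). The summed level itself was 588 ± 21.1 TPM without LPS and 549 ± 32.4 TPM with it, so the 3 genes together held a similar part of the transcripts while their make-up changed. In an exact two-sided permutation test the shares gave p = 0.1, the smallest value that 3 against 3 allows. The share does not depend on the scaling between libraries.

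**Figure D3:**
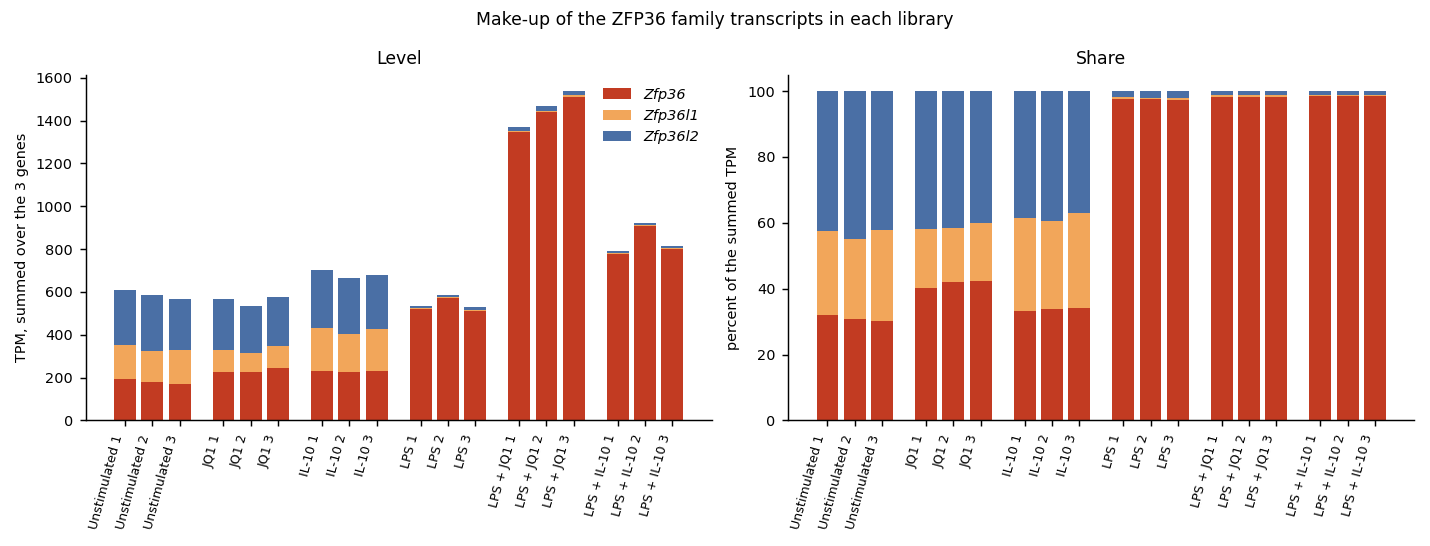
Summed TPM of Zfp36, Zfp36l1 and Zfp36l2 in each of the 18 libraries (left) and the share of each gene in that sum (right), with bars in replicate order. Zfp36 takes 30.2% to 42.2% of the sum in the 9 libraries without LPS and 97.2% to 98.4% in the 9 with LPS, and the sum is highest in LPS + JQ1.

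JQ1 given before LPS moved members in both directions. The 3 ZFP36 paralogs were all higher in LPS + JQ1 than in LPS, and Zc3h12c was lower. These 4 calls were kept in the same direction under all 4 scalings. In all, 7 of 8 members were called, 3 higher and 4 lower, against 57.3% of 14326 genes tested (24.4% higher, 32.9% lower). The median log2 fold change of the members was -0.17, beside -0.11 for all genes tested.

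Zfp36 reached 22361, 22017 and 24131 normalised counts in LPS + JQ1, above all 3 LPS libraries (9325 to 11452). The log2 fold change was 1.11 (SE 0.09), a 2.16-fold difference (adjusted p = 3.99e-38). The log2 ratio of means was 1.03 within lane 7 (1 library against 1) and 1.15 within lane 8 (2 against 2). In TPM this was 1431 ± 82.6 against 535 ± 32.6, the highest level of any member in any group.

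Zfp36l1 had 195, 194 and 241 normalised counts in LPS + JQ1, again above all LPS libraries (67.2 to 109), with a log2 fold change of 1.28 (SE 0.14, adjusted p = 1.03e-19). Zfp36l2 had 621, 617 and 693 against 443 to 492 (log2 0.47, SE 0.09, adjusted p = 1.7e-06). Both remained far below their unstimulated levels, at 7.43 ± 0.996 TPM for Zfp36l1 and 19.0 ± 1.49 TPM for Zfp36l2. The Zfp36 share of the family was 98.2% ± 0.067. This exceeded the LPS share in 3 of 3 same-numbered pairs, by 0.674 percentage points on average (exact permutation p = 0.1, the smallest possible).

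Zc3h12c fell to 2739, 2394 and 2231 normalised counts, below all LPS libraries (4951 to 5825), with a log2 fold change of -1.11 (SE 0.14), which is 2.16-fold lower (adjusted p = 2.3e-14). Within lanes the log2 ratios of means were -0.91 (1 library against 1) and -1.22 (2 against 2). Its relative Zc3h12a had 3806, 3363 and 3628, which overlapped the LPS range of 3696 to 4461 (log2 -0.22, SE 0.09, adjusted p = 0.0398). That call was lost with TMM factors (adjusted p = 0.403) and without any of LPS replicate 1 (0.176), LPS replicate 2 (0.156), LPS + JQ1 replicate 2 (0.164) or LPS + JQ1 replicate 3 (0.0701), and the direction turned under total-count scaling (0.16, adjusted p = 0.116). The 2 Regnase genes, both induced by LPS, thus had log2 values of -1.11 and -0.22 with JQ1. Their difference was not tested.

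Rc3h1 (2419.7, 2538 and 2324 normalised counts) and Elavl1 (1579, 1429 and 1545) were each below all LPS libraries. The log2 fold changes were -0.37 (SE 0.10, adjusted p = 0.000805) for Rc3h1 and -0.36 (SE 0.07, adjusted p = 6.67e-07) for Elavl1. With total-count scaling these became 0.001 and 0.02, so their direction rests on the scaling. Relative to the median gene they were -0.28 and -0.26 with size factors and, as the arithmetic requires, the same values with total counts. In TPM both genes overlapped LPS, while Zc3h12a and Khsrp, which overlapped in normalised counts, were separate and higher. Khsrp, at 2715, 2273 and 2639, overlapped LPS (log2 -0.12, 95% interval -0.32 to 0.08, adjusted p = 0.311), and was higher at 0.26 with total counts (adjusted p = 0.011).

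With total-count scaling the split of the members called was 4 higher and 1 lower. The ratio of Zfp36 to Elavl1 within a library, which needs no scaling, compares a transcript for a decay-promoting protein with that for a stabilising one. It was 9.90 ± 0.314 in unstimulated cells, 20.2 ± 2.99 in LPS and 55.7 ± 2.66 in LPS + JQ1 (SD, n = 3, TPM over TPM). On the log2 scale LPS + JQ1 exceeded LPS by 1.47, in 3 of 3 same-numbered pairs (exact two-sided permutation p = 0.1, the smallest possible). Whether protein levels follow was not measured.

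**Figure D4:**
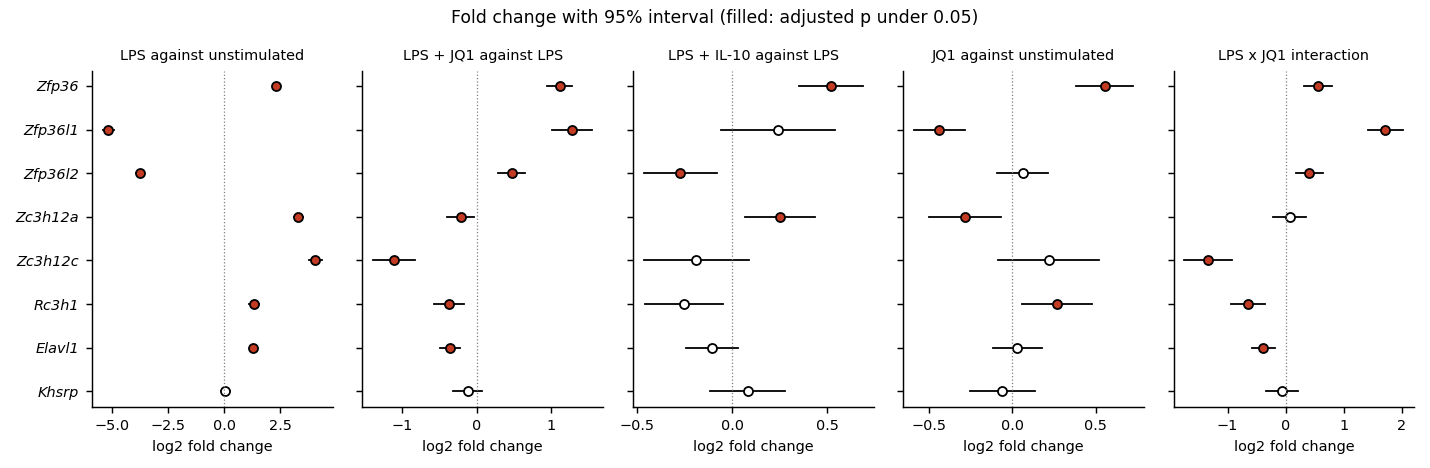
Log2 fold changes with 95% intervals for the 8 members in 4 comparisons and in the LPS x JQ1 interaction, from the DESeq2 fit, with filled points for an adjusted p under 0.05 and a separate horizontal scale in each panel. LPS moved members by up to 5.16 in size, JQ1 within LPS raised the 3 ZFP36 paralogs and lowered Zc3h12c, and IL-10 within LPS moved none by more than 0.52.

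JQ1 without LPS was a milder treatment for these genes. The call count was 4 of 8, 2 higher and 2 lower, against 45.7% of 13686 genes tested (21.9% higher, 23.7% lower), and is thus near the background. Zfp36 rose from 1922 to 2203 normalised counts without treatment to 2951, 3090.4 and 3161 with JQ1 (log2 0.55, SE 0.09, adjusted p = 2.21e-09). Zfp36l1 fell to 2319, 2151 and 2363, below all unstimulated libraries (2992 to 3133; log2 -0.44, SE 0.08, adjusted p = 1.11e-07). The Zfp36 share of the family was 41.5% ± 1.06 with JQ1 alone, against 31.02% ± 0.857 (exact permutation p = 0.1, the smallest possible).

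The other calls with JQ1 alone were smaller. Zc3h12a had 364, 366 and 315 normalised counts, below the 409 to 444 of untreated cells (log2 -0.28, SE 0.11, adjusted p = 0.0229), and lost the call without unstimulated replicate 1 (adjusted p = 0.106) or JQ1 replicate 3 (adjusted p = 0.153). Rc3h1 had 1586, 1534 and 1391 (log2 0.27, SE 0.11, adjusted p = 0.0286), and its value dropped to 0.09 under total-count scaling (adjusted p = 0.561). It also lost the call without unstimulated replicate 2 or 3 or JQ1 replicate 1 or 2, with adjusted p between 0.0682 and 0.118. Zfp36l2, Zc3h12c, Elavl1 and Khsrp did not pass, with log2 values between -0.06 and 0.22. With total counts or log2(TPM + 1) the split was 1 higher and 3 lower, since Rc3h1 was lost and Khsrp passed, at -0.23 (adjusted p = 0.0254) and -0.26 (adjusted p = 0.00505), and Zfp36l2 and Elavl1 turned direction without passing.

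The difference of these effects was tested directly. The LPS x JQ1 interaction asks whether the LPS response, on the log2 scale, differed between cells with and without JQ1. It was called for 6 of 8 members, 3 higher and 3 lower, against 41.5% of 12727 genes (17.7% higher, 23.8% lower). For Zfp36 the LPS response was 5.05-fold without JQ1 and 7.45-fold with it, an interaction of 0.56 (SE 0.12, adjusted p = 2.32e-05). Zfp36l1 fell 35.7-fold without JQ1 and 10.9-fold with it, an interaction of 1.72 (SE 0.16, adjusted p = 7.96e-26). JQ1 therefore went with less Zfp36l1 in unstimulated cells and more of it in LPS-treated cells.

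For Zfp36l2 the interaction was 0.41 (SE 0.12, adjusted p = 0.00274). Zc3h12c, raised 16.7-fold by LPS alone, was raised 6.63-fold when JQ1 was present, from 427, 319 and 363 normalised counts in JQ1 (interaction -1.33, SE 0.21, adjusted p = 2.04e-09). Zc3h12a was raised 9.86-fold and 10.3-fold, and its interaction did not pass (0.07, 95% interval -0.22 to 0.35). Rc3h1 (-0.64) and Elavl1 (-0.39) were called, but total-count scaling gave -0.09 (adjusted p = 0.671) and 0.16 (adjusted p = 0.191). The same scaling gave interactions of 0.62 for Zc3h12a and 0.49 for Khsrp that passed. The split was then 5 higher and 1 lower. The 3 ZFP36 paralogs and Zc3h12c kept call and direction under all 4 scalings.

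IL-10 given before LPS changed fewer members. Zfp36 was the clearest, at 15238, 16529 and 13687 normalised counts, all above the LPS range of 9325 to 11452 (log2 0.52, SE 0.09, 1.43-fold, adjusted p = 3.18e-08). In TPM this was 829 ± 69.5 against 535 ± 32.6. The log2 ratios of mean normalised counts within lanes were 0.48 (1 library against 1) and 0.54 (2 against 2). Of the 8 members, 3 were called, 2 higher and 1 lower, beside 17.2% of 11448 genes tested (8.38% higher, 8.81% lower). With TMM factors, total counts or log2(TPM + 1) the split was 2 higher and 0 lower.

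The other 2 calls were weak. Zfp36l2 had 367, 439 and 355 normalised counts, below the LPS range of 443 to 492 though overlapping it in TPM (log2 -0.27, SE 0.10, adjusted p = 0.0363), and Zc3h12a had 5156, 5346 and 4417, overlapping 3696 to 4461 (log2 0.25, SE 0.09, adjusted p = 0.0471). Zfp36l2 lost its call with TMM factors (adjusted p = 0.0506) and without LPS replicate 1 or 2 or LPS + IL-10 replicate 1 or 3 (0.0649 to 0.198), and Zc3h12a lost it without LPS replicate 3 (0.252) or LPS + IL-10 replicate 1 (0.163) or 2 (0.271). Rc3h1 did not pass (log2 -0.26, adjusted p = 0.0753) but was called without LPS + IL-10 replicate 3, a library that stood apart, at -0.39 (adjusted p = 0.000555), and without LPS replicate 2 (-0.32, adjusted p = 0.0378). Without both libraries that stood apart Zfp36 kept its call, and Zfp36l1, which had 120.4, 102 and 88.4 normalised counts in LPS + IL-10 (log2 0.24, adjusted p = 0.334), passed at 0.58 (adjusted p = 0.019).

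IL-10 without LPS left 1 member past the threshold, beside 2.81% of 12727 genes (1.80% higher, 1.01% lower). Zfp36l1 had 3877, 3627 and 3743 normalised counts against 2992 to 3133 in untreated cells (log2 0.28, SE 0.08, adjusted p = 0.0109). This call was lost in edgeR (adjusted p = 0.19), with log2(TPM + 1) (0.275) and log2(TPM + 0.1) (0.525), and without unstimulated replicate 2 or 3 or IL-10 replicate 1 or 3 (0.0809 to 0.209). Zfp36 had 2549.5, 2566 and 2489, also above every untreated library, but at a log2 value of 0.28 its adjusted p was 0.0525. With the mouse as a block this became 0.0268, the only member call in any comparison that the block changed.

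No member passed the LPS x IL-10 interaction, beside 7.44% of 10808 genes (4.00% higher, 3.44% lower). The DESeq2 fit gave 3 members with an unadjusted p under 0.05, Zfp36 (0.24), Zfp36l2 (-0.26) and Rc3h1 (-0.32), and edgeR and limma on log2(TPM + 1) each called 0. Leaving out LPS + IL-10 replicate 3 gave 1 call, Rc3h1 at -0.46 (adjusted p = 0.00653), and total-count scaling gave 1, Zfp36 at 0.34 (adjusted p = 0.0399). The LPS response under IL-10 was 5.98-fold for Zfp36, 36.8-fold lower for Zfp36l1, 16.0-fold lower for Zfp36l2, 10.5-fold for Zc3h12a and 14.3-fold for Zc3h12c. Between LPS + IL-10 and IL-10, 7 of 8 members were called, 5 higher and 2 lower, beside 67.0% of genes (33.2% higher, 33.8% lower), with 4 higher and 3 lower by total counts. The count was the same between LPS + JQ1 and JQ1, beside 58.6% (27.6% higher, 31.0% lower).

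The pretreatments were also compared with each other in LPS-treated cells. Relative to LPS + IL-10, LPS + JQ1 had more Zfp36 (log2 0.59, SE 0.09), Zfp36l1 (1.04, SE 0.13) and Zfp36l2 (0.74, SE 0.10), and less Zc3h12a (-0.47, SE 0.09), Zc3h12c (-0.92, SE 0.14) and Elavl1 (-0.25, SE 0.07). These 6 calls stand against 55.3% of 14326 genes (23.8% higher, 31.6% lower). The 3 paralogs and Zc3h12c were called in the same direction under all 4 scalings, Zc3h12a was lost with total counts (-0.18, adjusted p = 0.0684), and Elavl1 turned to 0.03 there (adjusted p = 0.781), for a split of 3 higher and 1 lower. Both treatments raised Zfp36 over LPS alone, JQ1 by 1.11 and IL-10 by 0.52, and these 2 values share the LPS libraries.

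Hnrnpd, for AUF1, an AU-rich element binder that can promote decay, was higher with LPS and lower with JQ1. It had 615, 595 and 649 normalised counts in unstimulated cells and 1442, 1471 and 1731 in LPS (log2 1.32, SE 0.11, adjusted p = 3.34e-35). With JQ1 the values were 387, 296 and 324 alone (log2 -0.89, SE 0.11) and 867, 796 and 787 in LPS (log2 -0.92, SE 0.10, adjusted p = 6.72e-18), below the untreated libraries in both settings. IL-10 within LPS gave -0.13 (adjusted p = 0.483). These JQ1 and LPS calls were kept under all 4 scalings. The gene overlaps the transcript Gm17092 on the opposite strand.

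Among the related RNA-binding factors, Hnrnpd included, 14 of 17 in the table could be tested with LPS. Of these 9 were higher, 2 were lower and 3 did not pass (78.6% called, beside 64.5% of all genes), with a median of 0.90. Zc3h12b, Zfp36l3, Elavl2, Elavl3 and Elavl4 had a mean of at most 2.93 normalised counts in any group. The 14 tested, here and with JQ1 in LPS, thus include genes near the floor. Arid5a, whose protein protects Il6 mRNA against Regnase-1, rose by 4.35 (SE 0.15), and N4bp1, for a protein with a nuclease domain related to that of the Regnases, by 2.92 (SE 0.11). Zc3h12d, for Regnase-4, fell by 2.05 (SE 0.14), and Tia1, a translational repressor that binds U-rich RNA, fell by 0.85 (SE 0.18). Total-count scaling changed the split to 5 higher and 4 lower. Ythdf2 turned direction there, while Arid5a, N4bp1, Zc3h12d and Tia1 kept call and direction.

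In LPS + JQ1 against LPS the same list had 2 higher and 8 lower of 14, with a median of -0.39 beside -0.11 for all genes. This was 71.4% called, beside 57.3% of all genes. Zc3h12d fell further, by 2.89 (SE 0.24), and N4bp1 (-0.92), Arid5a (-0.83) and Rc3h2 (-0.61), which encodes Roquin-2, were also lower. Tia1 rose by 1.29 (SE 0.18) and its paralog Tial1 by 0.33 (SE 0.09). With total counts the split was 4 higher and 4 lower, since Rc3h2, Hnrnpab, Pum2 and Ythdf2 lost their calls, and Ythdf2 turned direction. In LPS + IL-10 against LPS, 1 was higher and 1 lower of 12 tested, Zc3h12d (1.26, SE 0.14) and Arid5a (-0.93, SE 0.14). The median was -0.08, and the 16.7% called was near the 17.2% of all genes. The count was 4 without LPS + IL-10 replicate 3, and total counts gave 2 higher and 1 lower. Relative to LPS alone, Zc3h12d thus moved down under JQ1 and up under IL-10.

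**Figure D5:**
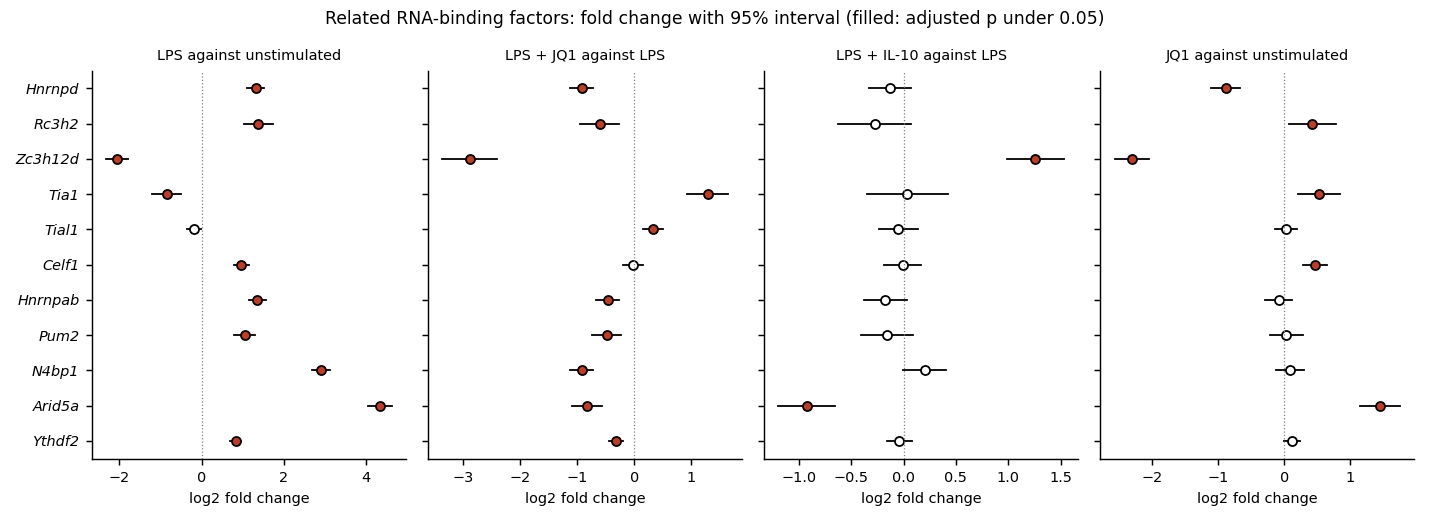
Log2 fold changes with 95% intervals for 11 related RNA-binding factors whose mean normalised count reached 100, in 4 comparisons with separate scales, filled for an adjusted p under 0.05. Hnrnpd rises with LPS and falls with JQ1, and Zc3h12d falls with LPS and JQ1 and rises with IL-10.

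The enzymes that act after these proteins were followed as 2 lists. Of 18 genes for deadenylation, 7 were higher and 6 lower with LPS (median -0.02), led by Btg2 (1.72) and Cnot4 (1.33) and by Pan2 (-1.10) and Parn (-0.97), and 6 higher and 7 lower with JQ1 in LPS (median -0.11). The share called was 72.2% in each, beside 64.5% and 57.3% of all genes. Total counts turned these splits to 3 against 13 and 10 against 2. Tob1, an adaptor that brings the CCR4-NOT complex to mRNAs, was the strongest gain with JQ1 in LPS, at 2.26 (SE 0.15), followed by Cnot10 (1.11), and Cnot7 (-0.78) and Btg2 (-0.63) were lower. These 4 genes kept call and direction under all 4 scalings. With IL-10 in LPS, 2 of the 18 were called, both lower (11.1%, beside 17.2% of all genes). With total counts 2 were higher and 1 lower, and with log2(TPM + 1) 3 were higher and 1 lower.

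Of 30 genes for decapping and exonucleases, 11 were higher and 4 lower with LPS (median 0.11), 50.0% called beside 64.5% of all genes. Total-count scaling reversed that split to 3 higher and 24 lower. The decapping enzyme gene Dcp2 (3.34) and the 5′ to 3′ exonuclease gene Xrn1 (2.17) rose, and the exosome genes Exosc5 (-1.01) and Exosc6 (-0.94) fell under every scaling. With JQ1 in LPS 5 were higher and 14 lower (63.3% called beside 57.3%; median -0.15; 13 and 7 with total counts), among them Xrn1 (-1.13) and Exosc10 (-0.93) lower and Exosc6 (0.85) and Exosc4 (0.69) higher. With IL-10 in LPS 1 was called, lower (3.33%, beside 17.2% of all genes), whereas total counts gave 1 that was higher and log2(TPM + 1) gave 0.

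Kinases, phosphatases and proteases that act on the decay proteins formed a list of 13. With LPS 11 were higher and 2 lower (median 1.18; 7 and 6 with total counts). With JQ1 in LPS 2 were higher and 11 lower (median -0.69; 2 and 7 with total counts). The share called was 100% in each, beside 64.5% and 57.3% of all genes. Malt1, for a protease that cleaves Regnase-1 and the Roquins, rose by 5.51 (SE 0.11) with LPS and fell by 1.56 (SE 0.10) when JQ1 was present. Mapkapk2, for the kinase MK2 that phosphorylates TTP, rose by 3.55 (SE 0.09) with LPS and by a further 0.31 (SE 0.09) with JQ1, while Mapkapk3 fell by 0.82 with LPS and was 0.38 higher with JQ1. Akt2 was 1.83 lower in LPS + JQ1 than in LPS. With IL-10 in LPS 4 were called (30.8%, beside 17.2% of all genes), 2 in each direction, with a median of 0.02. Without LPS + IL-10 replicate 1 there were 2. Total counts gave 3 higher and 1 lower.

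Transcripts known as targets of these factors were followed as a list of 16. The nonamer was present in the 3′ UTR of 7 of them (43.75%), against 6.82% of genes in the same length range. The list was chosen as known targets of factors that include binders of this motif, so the higher share may follow from that choice. All 16 were higher with LPS under every scaling, with a fitted median of 9.56, or 8.92 when Il23a and Csf2, which had no count in any unstimulated library, take a lower bound against 3 counts per library. The share called with LPS was 100%, beside 64.5% of all genes (31.6% higher), in a list chosen with earlier results of these data known. In LPS + JQ1 against LPS 12 were lower and 1 was higher, with a median of -1.98 (-0.11 for all genes). This was 81.25% called, beside 57.3% of all genes (24.4% higher, 32.9% lower). Tnf was lower by 1.94 (SE 0.25), Il6 by 4.88 (SE 0.42) and Il12b by 4.24 (SE 1.00), all given as log2. Ier3, an early response gene, was the target that was higher, at 1.78 (SE 0.12). With IL-10 in LPS 9 were lower and 1, Ier3 (0.97, SE 0.12), was higher, with a median of -1.60. This was 62.5% called, beside 17.2% of all genes (8.38% higher, 8.81% lower). Without LPS replicate 3 and LPS + IL-10 replicate 3, 5 were called in all. The RNA levels do not separate transcription from decay.

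The genes with the most similar profile were taken over the 6 group means, among 8378 genes whose mean normalised count reached 100, as the smallest root mean square log2 difference between centred profiles. For Zc3h12a these were Tlr2 (0.125), Slc31a2 (0.161) and Rhbdf2 (0.203), and for Zc3h12c Zfp800 (0.0854), 5730508B09Rik (0.105) and Naa25 (0.110). Zfp36 had no close match, with Syne2 (0.256), Gramd1a (0.259) and Dgkh (0.271) the nearest. Snx24 (0.152), Etl4 (0.239) and Kcnk13 (0.271) were nearest to Zfp36l1, and Aph1c (0.153), Hdac5 (0.185) and Iqce (0.190) to Zfp36l2. The flatter members had closer neighbours, with Rnf11 (0.0287), Atp6v1h (0.0372) and Mdm4 (0.0458) for Rc3h1, Med10 (0.0204) and Rab8a (0.0397) for Elavl1, and Cabin1 (0.0335), Ndufv1 (0.0337) and Smc1a (0.0369) for Khsrp. The 6 points share libraries and scaling, and the distance describes these profiles only.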

How the data were processed

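RNA-seq was analysed from 18 libraries, 3 per group. Per the labels and the methods, the authors made ribosomal RNA-depleted, stranded, paired-end libraries, aligned them to mm9 with STAR (version not given in the sources used here) and quantified genes with RSEM 1.2.31. The deposited files hold expected counts (estimated counts per gene, not scaled), TPM and effective lengths, 1 file per library. FPKM values were not used.

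Expected counts were rounded and tested with DESeq2 1.42.0 (R 4.3.3), as in the study's methods, in 1 Wald fit over all 18 libraries with group as the term, Benjamini-Hochberg adjustment over all genes and a threshold of 0.05. This takes the place of edgeR's quasi-likelihood test, which was run as an alternative (edgeR 4.0.16). Genes that DESeq2 left without an adjusted p were not counted as tested. Between 5.40% and 6.63% of genes per library had a count that was not whole. Total expected counts ranged from 6781952 to 28289498, and 3 counts were worth 0.106 to 0.442 CPM, which covers counting error only. TPM served for levels between genes and was tested with limma 3.58.1 as an alternative on log2(TPM + 1) and log2(TPM + 0.1), where folds of low genes are understated. Shares and ratios were tested by exact permutation over libraries (Python 3.11.15). The LPS against unstimulated fit was also run on simulated counts in which a small set of genes was changed in the LPS group. With so few genes changed, that run does not check the choice of scaling.

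The labels number the libraries of each group 1 to 3 and give 3 mice, so the same number was read as the same mouse. The correlations of their deviations ranged from -0.094 to 0.381. Sequencing lane, taken from the labels, was lane 7 for replicate 1, lane 8 for replicate 3, and for replicate 2 lane 7 without LPS and lane 8 with it.

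The members and lists were chosen with earlier results of these data known. All members were named, any gene of the related-factor and target lists could be named, and from each other list the 2 largest rises and 2 largest falls past the threshold whose mean normalised count reached 100 in LPS against unstimulated and in LPS + JQ1 against LPS, with the 3 nearest genes of each member. Some genes that these rules name are not reported here. Sequences were cut from the GENCODE vM1 transcripts and the NCBIM37 genome. Alternatives were other scalings, tools, filters, pseudocounts, the mouse as a block, lane as a covariate, an effective length offset, fits on the compared groups alone and leaving out libraries. Leaving out LPS replicate 3 with LPS + IL-10 replicate 3, and counting the lists under every alternative, were chosen after seeing the data.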

Additional observations from a re-analysis of the deposited data

Results flagged for a closer look

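The results below were singled out because the response to LPS differed between pretreated and untreated cells by the interaction term of the DESeq2 fit (adjusted p under 0.05). Values are on the log2 scale, and a positive value means a response shifted upward by the pretreatment. For JQ1 these members were Zfp36 (0.56), Zfp36l1 (1.72), Zfp36l2 (0.41), Zc3h12c (-1.33), Rc3h1 (-0.64) and Elavl1 (-0.39), of which Rc3h1 and Elavl1 lost the call under total-count scaling.

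Among the related RNA-binding factors the values with JQ1 were -1.03 for Rc3h2, 0.76 for Tia1, 0.29 for Tial1, -0.49 for Celf1, -0.38 for Hnrnpab, -0.51 for Pum2, -1.01 for N4bp1, -2.28 for Arid5a and -0.44 for Ythdf2. In all, 10 of the 12 related factors tested were called (83.3%, beside 41.5% of all genes), not all of them named here. Under total-count scaling Rc3h2, Celf1, Hnrnpab, Pum2 and Ythdf2 no longer passed. Among the targets they were -1.39 for Tnf, -1.47 for Ccl3 and -1.69 for Nfkbiz, and these 3 passed under all 4 scalings. These 3 targets were 18.75% of those tested, beside 41.5% of all genes. The median interaction of the 16 targets was -1.235, beside -0.05 for all genes tested. Il23a and Csf2 had no count in any unstimulated or JQ1 library, and Il6 and Csf3 had none in any JQ1 library. The number of targets called was not stable. It was 5 with total counts (2 higher, 3 lower), 11 with log2(TPM + 1) (1 higher, 10 lower) and 6 without unstimulated replicate 1.

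For IL-10 the values were 0.87 for Zc3h12d, -2.24 for Arid5a, -1.75 for Ccl2, -0.87 for Ccl3, -0.86 for Nfkbiz and 2.43 for Dusp1, a phosphatase gene chosen after its values were seen. With log2(TPM + 1) Zc3h12d (adjusted p = 0.0541) and Nfkbiz (0.112) did not pass. The 3 targets called for IL-10 became 1 without unstimulated replicate 2 or 3, LPS replicate 3 or LPS + IL-10 replicate 2, 5 without unstimulated replicate 1, 7 without LPS + IL-10 replicate 1, 6 with the mouse as a block and 8 with log2(TPM + 1). Arid5a therefore had a shift of -2.28 with JQ1 and of -2.24 with IL-10. Its mean normalised count without LPS was 170 untreated, 466 with JQ1 and 424 with IL-10. With LPS it was 3464, 1952 and 1824 in that order. For Nfkbiz the means were 487, 1214 and 712 without LPS and 26004, 19991 and 20965 with it. Without LPS, the libraries of Arid5a with either pretreatment, and of Nfkbiz with JQ1, were all above the untreated ones. For Nfkbiz with IL-10 they overlapped, at 551 to 900 against 394 to 647. The part of the resting levels in the shifts of these 2 genes was not tested. The shifts with JQ1 and with IL-10 share the unstimulated and LPS libraries.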

How the results depend on the processing

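Of 1432 member values under alternatives, 1277 kept direction and side of the threshold. With the direction kept, a further 55 lost the call and 30 gained one. The other 70 turned direction. In 21 of the 70 a call was made before or after the turn, and those were under total-count scaling or TPM. The other 49 passed in neither fit, 16 of them under total counts or TPM, 25 without a library and 8 under other settings such as TMM factors. In 79 of 80 member values the mouse as a block left the call as it was. The exception was Zfp36 with IL-10 alone (0.28, adjusted p = 0.0268), which brought the members called there from 1 to 2. The pairing left the mean shares and ratios as they were, with a sign-flip p of 0.25, the smallest 3 pairs allow. In LPS against unstimulated, Khsrp turned to -0.87 with total counts, -0.71 with log2(TPM + 1) and -0.72 with log2(TPM + 0.1), and in LPS + IL-10 against IL-10 to -0.75, -0.64 and -0.65. In the LPS x JQ1 interaction, in the same order, Elavl1 turned to 0.16, 0.11 and 0.12 and Khsrp to 0.49, 0.44 and 0.45. In LPS + JQ1 against LPS, Zc3h12a turned to 0.16, 0.091 and 0.092, Khsrp to 0.26, 0.18 and 0.18, and with total counts only Rc3h1 to 0.001 and Elavl1 to 0.017. In LPS + JQ1 against LPS + IL-10, Elavl1 turned to 0.027 with total counts. The cause was not tested. The members called in LPS + IL-10 against LPS were 1 with edgeR and 1 in the fit on the 2 groups alone, and in IL-10 against unstimulated 2 with total counts, 2 on the 2 groups alone, 2 with the effective length offset and 0 with edgeR. In the LPS x IL-10 interaction total counts gave 1 and the fit without LPS replicate 3 and LPS + IL-10 replicate 3, chosen after seeing the data, gave 1. Leaving out 1 library at a time gave 1 to 3 calls in LPS + IL-10 against LPS, 0 to 2 in IL-10 against unstimulated and 0 to 1 in that interaction. The decapping list had 15 calls with LPS by size factors and 25 with log2(TPM + 1). With IL-10 in LPS the deadenylation list had 2 calls (1 to 4 under alternatives, 1 without LPS replicate 3 or LPS + IL-10 replicate 2) and the decapping list 1 (0 to 3, the highest without LPS + IL-10 replicate 3). Zfp36l1 in LPS rests on as few as 60 counts in replicate 1, at 2.27 TPM, and on 65 in replicate 2, at 1.90 TPM.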

Other observations

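Dusp1, for the phosphatase that switches off the MAP kinase p38, belongs to the list of regulators and was picked once its values were known. By size factors it was among the 11 of that list called higher with LPS. It was also among the 11 called lower in LPS + JQ1 than in LPS. In LPS + IL-10 it was 2.10 higher than in LPS on the log2 scale (SE 0.14, adjusted p = 1.49e-48), and with JQ1 alone it was 0.55 lower than in unstimulated cells (SE 0.14, adjusted p = 0.000405, DESeq2).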
